A study of Mus musculus with 48 samples.

Results

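Very long gene models formed a small part of the count table. A gene was taken here when its deposited length, in effect the summed length of its annotated exons, reached 15000 bases, and 379 of 20171 genes met this rule. Their median length was 17750 bases, against 3309 bases over all genes, and the longest was listed at 123179 bases. RefSeq entries were found for 373 of the 379, of which 366 were protein coding and 7 were long noncoding RNAs. The deposited length is a property of the annotation and does not prove that a transcript of that size was made. For 3 genes it was larger than the gene's own RefSeq span. These were Nopchap1 with 123179 bases in a span of 8615, Macir with 41324 in 18117 and Kcnq1ot1 with 93092 in 83437. The genes are therefore called here the 15-kilobase genes or, in short, the long-model genes. The 3 members nearest above the threshold were Mob1b at 15033, Helz at 15044 and Adamts9 at 15048 bases, and the 3 genes nearest below it were Ptprs at 14990, Ppp1r12b at 14983 and Dnah2 at 14968 bases.

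The measurements came from an RNA immunoprecipitation of the protein Tnrc6a in mouse embryonic stem cells, followed by sequencing of total RNA. All cells were of the 129S6/SvEvTac background, carried the GFP_5xT71BS reporter at yGlob and had been stably transfected with FLAG-Cas9 linked to blasticidin resistance, and they were grown on gelatin with serum and LIF. The 4 genotypes were the untagged parental line, cells whose Tnrc6a carries an HA-AVI tag (HA-Tnrc6a), HA-Tnrc6a cells labelled Ago2-/- and HA-Tnrc6a cells labelled Upf1-/-. The labels do not say whether each line was 1 clone. From each genotype, lysate before the pull-down (input) and RNA held by HA magnetic beads (IP) were sequenced in 6 libraries each, 48 in all. The libraries fall into 2 sets of 3 per group, numbered 1 to 3 and 4 to 6 in the table, while the labels name experiments 3 and 4 with triplicates. These are called the first and the second library set, since the table does not say which is which experiment. The triplicates are dishes, so a p-value measures only the spread between these samples.

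Tnrc6 proteins, also called GW182 proteins, bind the Argonaute protein of a microRNA-guided silencing complex. They bring in the CCR4-NOT deadenylase, which shortens the poly(A) tail of the bound mRNA and so lowers its translation and stability. A microRNA finds its targets mainly through its seed, bases 2 to 8 of the mature strand. Upf1 is an RNA helicase at the centre of nonsense-mediated decay, which removes mRNAs whose stop codon lies upstream of an exon junction complex or before a long 3′ untranslated region. Genes with very long exon models include giant structural proteins, chromatin regulators and genes with long 3′ untranslated regions.

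Long genes also carry microRNA hairpins inside their introns or exons. In RefSeq on GRCm38.p6, a hairpin on the same strand lay inside the span of 28 of 297 long-model genes with a usable span (9.43%), against 413 of 11867 other genes (3.48%). The median spans of the 2 groups were 135995 and 21369 bases, and the part of span in the difference was not tested. The following mature sequences are shown because their hairpins lie in long-model genes and, for the first 3 pairs, share a seed. Recovery of the hosts of these 3 pairs is given with the recovery results, and for Slit2 only the input level is given. Lines run 5′ to 3′ and capitals mark the seed. Huwe1, a giant ubiquitin ligase, holds both members of the first pair, at chrX:151912353-151912374 and chrX:151913229-151913250.
let-7f-5p (Huwe1): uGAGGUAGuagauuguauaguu
miR-98-5p (Huwe1): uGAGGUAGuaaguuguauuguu
miR-125b-5p (Mir100hg): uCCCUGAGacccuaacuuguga
miR-6394 (Tenm4): uCCCUGAGuggggccaggucu
miR-204-5p (Trpm3): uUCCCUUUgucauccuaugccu
miR-7670-3p (Ubn2): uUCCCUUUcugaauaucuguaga
miR-218-5p (Slit2): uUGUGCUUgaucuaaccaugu
The remaining positions, all on the plus strand, are chr9:41581940-41581961 for miR-125b-5p, chr7:96305740-96305760 for miR-6394, chr19:22750610-22750631 for miR-204-5p, chr6:38507371-38507393 for miR-7670-3p and chr5:48223966-48223986 for miR-218-5p. The sequences are RefSeq's, and the microRNAs themselves were not measured in these libraries.

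The libraries were checked against their labels before any comparison. Gene counts per library ran from 15383953 to 19595405 in the first set of inputs and from 26458831 to 37179105 in the second, and from 11471544 to 18344233 and from 25724085 to 73845953 in the IPs, so the second set is the more deeply sequenced. Levels below are CPM, read counts divided by the library total after scaling with the trimmed mean of M-values (TMM) and multiplied up to the usual unit. The IP over input ratio of Tnrc6a itself was higher in tagged than in untagged cells. The log2 fold was 7.77 ± 0.18 (SE, adjusted p = 3.34e-18, edgeR's test). Ago2 was lower in Ago2-/- inputs, with 92.84 to 97.07 CPM against 205 to 209.7 CPM in HA-Tnrc6a inputs of the first set, and 124.3 to 135.6 against 302.5 to 323.4 CPM in the second. Upf1 mRNA was not lower in the cells labelled Upf1-/-: their inputs held 121.9 to 142.1 CPM and the HA-Tnrc6a inputs 74.41 to 99.61, and the mRNA level does not check the label. These cells are called the libraries labelled Upf1-/- throughout. All 8 stem cell markers were above 1 CPM, and their sum ran from 6400 to 8089 CPM over the inputs. Endodermal markers summed to 5.18 to 6.34 CPM in Ago2-/- inputs and 16.5 to 24.3 in HA-Tnrc6a inputs. They summed to 8.53 to 27.8 CPM in untagged inputs and 8.565 to 48.6 in inputs labelled Upf1-/-. Neural markers summed to 102.3 to 110.5 CPM in Ago2-/- inputs, 77 to 85.6 in HA-Tnrc6a inputs and 47.5 to 64.4 in inputs labelled Upf1-/-. Untagged inputs had 82.7 to 103 CPM, which overlapped the Ago2-/- range. Of the 5 neural markers only 2 had a mean input above 1 CPM. In bulk RNA, more cells of a type and more RNA per cell cannot be told apart.

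The long-model genes covered a wide range of levels. Their median mean input level was 34.2 CPM, against 10.1 CPM over all genes, but per kilobase of model the order turned, with 1.83 against 3.35 CPM per kilobase. Of the 379 genes, 35 had a mean input under 1 CPM and 60 had 100 CPM or more. Per kilobase, the highest was Trip12, a ubiquitin ligase, at 48 CPM per kilobase. It was followed by Enah, an actin regulator, at 34.3, the histone demethylase Kdm5b at 33.5 and the RNA-binding protein Serbp1 at 32.9. Among the others of the highest 10, Eprs, a tRNA synthetase, had 30.6, the deubiquitinase Usp9x 26.4, the ubiquitin-conjugating enzyme Ube2d3 22.9, Prrc2c 22.5 and the DNA-binding protein Fubp1 21.4 CPM per kilobase. Together the long-model genes took a mean of 2.39% to 2.59% of gene counts in the first set of inputs and 2.91% to 3.08% in the second. In the IPs the mean share was higher in every group, from 3.38% to 4.22% in the first set and from 3.61% to 3.94% in the second, the untagged IPs included.

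Recovery with Tnrc6a was measured as the IP over input ratio in HA-Tnrc6a cells divided by the same ratio in untagged cells, so that it is relative to RNA held by beads without the tag. More long-model genes rose than fell. Of 378 that passed the filter on low counts, 160 rose (42.3%, with 29.8% of all genes called higher) and 78 fell (20.6%, with 32.2% of all genes called lower) at an adjusted p under 0.05. The rise exceeded 2-fold for 72 genes and the fall for 4. Their median log2 fold was 0.16, against -0.10 over all genes. Another scaling moved the zero point. On plain library totals the median of all genes moved by -0.16, the median of the long-model genes was -0.0033, and 141 rose and 108 fell, so that 56.6% in place of 67.2% of calls were rises. A scaling shifts all genes nearly alike, and the long-model median was 0.25 above that of all genes in both.

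The highest recoveries were of Phc3, Mbnl1, Hdac4, Zbtb37 and Mast4. Phc3 encodes a Polycomb group protein (ENSMUSG00000037652, GRCm38.p6 chr3:30899295-30969479). In HA-Tnrc6a IPs it ran from 396.5 over a median of 515.1 to 763.5 CPM, and in untagged IPs from 11.3 over 24.1 to 25.8 CPM. The inputs of the same cells held 18 to 22.5 CPM and 16.5 to 24.4 CPM, so the tagged IPs stood apart from all other libraries of the pair. The log2 fold was 4.71 ± 0.15 (SE, adjusted p = 2.65e-18, edgeR's quasi-likelihood test). Mbnl1, a splicing regulator (chr3:60472559-60629750), had 159.7 to 242.8 CPM in tagged IPs, with a median of 198.1, and 4.38 to 12.5 CPM in untagged IPs, with a median of 8.69. Its log2 fold was 4.36 ± 0.13 (adjusted p = 4.29e-24). Hdac4, a class IIa histone deacetylase, rose by 3.93 ± 0.10, the zinc finger gene Zbtb37 by 3.87 ± 0.14 and the kinase Mast4 by 3.84 ± 0.11 on the log2 scale. In untagged cells alone, none of the 5 was higher on beads than in input, with log2 values from -0.62 to 0.02. The recovery contrast subtracts this same untagged ratio, so picking the highest recoveries favours low bead values. These values are given side by side only.

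**Figure D1:**
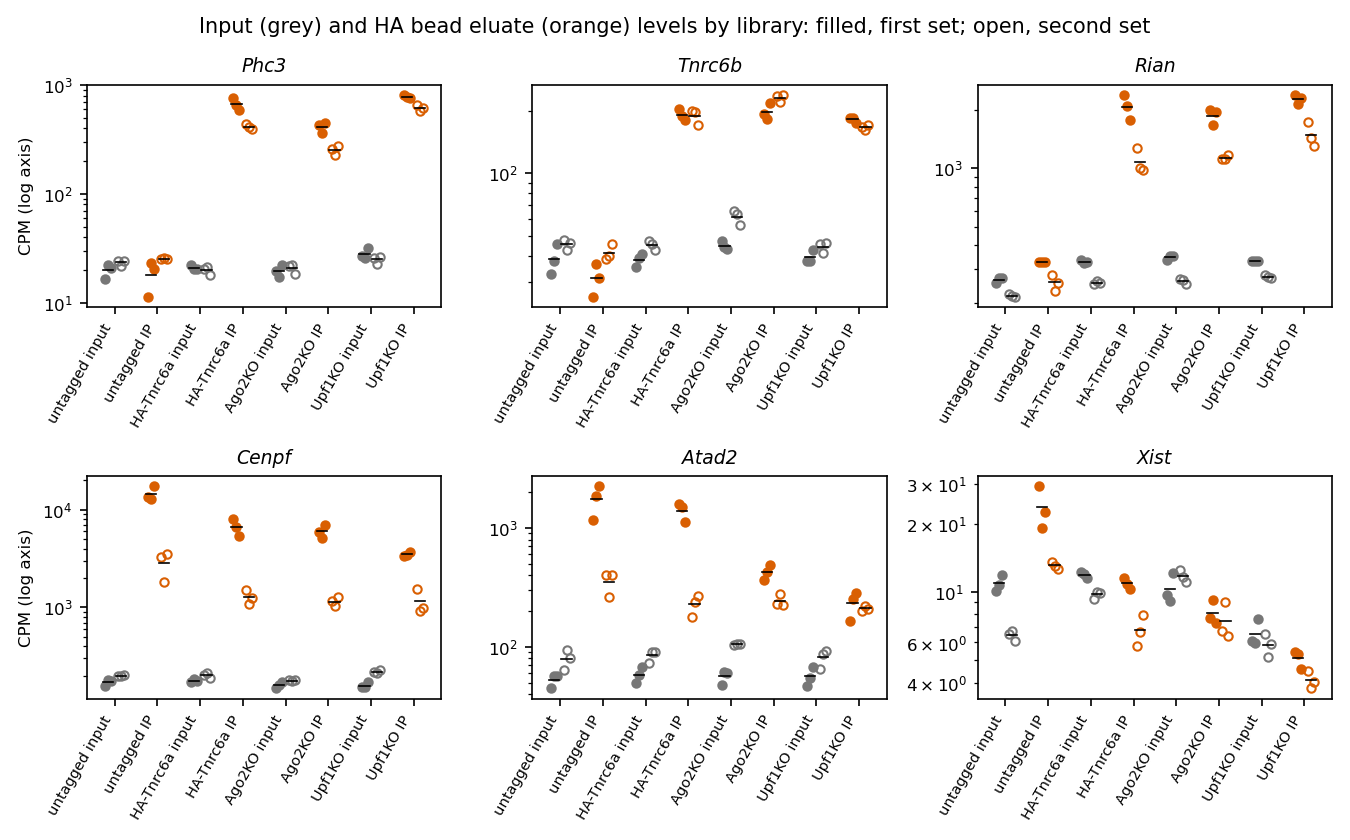
Levels of 6 long-model genes in every library, in CPM on a log axis, with inputs in grey, IPs in orange and black lines at the mean of each library set. The 6 HA-Tnrc6a IPs of Phc3 sit between 396.5 and 763.5 CPM, while those of Xist sit between 5.79 and 11.6 CPM; Cenpf is high in the IPs of all 4 genotypes, the untagged one included.

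Components of silencing and mRNA decay were among the recovered mRNAs. Of the 7 in the list with long models, 6 rose (85.7%) and 0 fell in edgeR's test. Over all genes 29.8% were called higher and 32.2% lower, and over long-model genes 42.3% and 20.6%. Tnrc6b, a paralogue of the tagged protein (chr15:80711313-80941086), had 171.2 to 204.6 CPM in tagged IPs and 25.3 to 45.7 CPM in untagged IPs, with medians of 193.1 and 37.5, and a log2 fold of 2.44 ± 0.11 (adjusted p = 1.01e-19). Ago3, an Argonaute, had 30.3 to 43.7 CPM against 14.3 to 21 CPM, with medians of 35 and 17, and a log2 fold of 1.06 ± 0.12. The groups did not overlap for either gene. The 5′ exonuclease Xrn1 rose by 0.50, the microRNA-processing enzyme Dicer1 by 0.38, the helicase Helz by 0.35 and the CCR4-NOT scaffold Cnot1 by 0.35. Smg1, the kinase that phosphorylates Upf1, did not pass the test, at -0.07 (adjusted p = 0.588).

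Chromatin and cytoskeletal genes had opposite medians. Of 38 long-model chromatin and transcription genes, 20 rose (52.6%) and 4 fell (10.5%), with a median of 0.48. The highest of these per kilobase of input were the DNA demethylase Tet2 at 0.65 and the histone methyltransferase genes Setd5 at 0.66 and Nsd1 at 0.90, and each of the 3 rose. Of 24 cytoskeletal linkers and motors, 5 rose and 8 fell (33.3%, near the 32.2% of all genes called lower), with a median of -0.50. Utrn, which links actin to the membrane, fell by 0.42, Apc, a scaffold of the Wnt pathway that binds microtubules, rose by 0.24, and the dynein heavy chain Dync1h1 had -0.21 (adjusted p = 0.436). Among 16 synaptic and neuronal genes 8 rose and 2 fell, including Nav1 with a rise of 1.26 and Map1b with a fall of 0.43. For 16 membrane receptors and adhesion genes the counts were 2 and 3, for 14 ubiquitin and protein turnover genes 5 and 2, and for 17 vesicle and lipid transport genes 6 and 2. The shares called higher in the ubiquitin and vesicle lists, 35.7% and 35.3%, lay near the 29.8% of all genes. The 9 giant muscle and calcium release genes gave 2 and 3, and the 5 giant kinases and genome maintenance genes 0 and 3.

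The long noncoding RNAs were divided. Rian, made from the imprinted Dlk1-Dio3 locus, ran from 976.6 over a median of 1530 to 2387 CPM in tagged IPs and from 232.3 over 304.1 to 328.4 CPM in untagged IPs, and its log2 fold was 2.12 ± 0.089 (adjusted p = 1.28e-20). Meg3, from the same locus, held 81.7 to 190 CPM in tagged IPs and 156.8 to 278.4 CPM in untagged IPs, and fell by 0.93 on the log2 scale. Xist, the RNA that coats the inactive X chromosome (chrX:103460373-103483233), had 5.79 to 11.6 CPM in tagged IPs and 12.7 to 29.3 CPM in untagged IPs, and fell by 1.38 (adjusted p = 1.21e-11). Neat1, the scaffold of nuclear paraspeckles, fell by 0.74, and Kcnq1ot1 had -0.65 without passing the test. Of these 5, which make up the list, 1 rose (20%, with 29.8% of all genes called higher) in this contrast. The 3 that fell were 60%, with 32.2% of all genes called lower. Outside the list, Ipw fell by 0.78 and Mir100hg by 0.92, and Morrbid had -0.57 without passing the test. Of the other microRNA hosts named above, Ubn2 rose by 0.83 and Huwe1 fell by 0.33, while Tenm4 and Trpm3 had 0.11 and 0.52 without passing the test. The library kit keeps strand, but whether reads were counted by strand is not given in the sources used here, so reads of Xist and Tsix, or of Kcnq1ot1 and Kcnq1, cannot be told apart.

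Recovery went with length across the table, and the long-model class did not stand at the top of it. The share of genes called higher was 13.1% under 1000 bases, 17.2% from 1000 to below 2000, 27.7% from 2000 to below 4000, 40.6% from 4000 to below 8000, 45.8% from 8000 to below 15000 and 42.3% from 15000 bases. The share called lower went from 40.9% to 20.6% in the same order. Long models also collect more counts, so the classes were set beside genes of like input level. Under 1 CPM, 11.8% of long-model genes rose and 2.94% fell, against 15.5% and 12% of other genes. From 1 to below 10 CPM the shares were 34.4% and 24.6%, against 27% and 26.3%. From 10 to below 30 CPM, 54.7% of long-model genes rose and 13.3% fell, against 39.6% and 37.7% of other genes, and from 30 to below 100 CPM 50% and 21.6%, against 39% and 42.8%. At 100 CPM or more both shares were 33.3%, against 25.8% and 59.8% of other genes. Just below the threshold, Dnah2 and Ppp1r12b rose by 0.67 and 0.45 and Ptprs fell by 0.37. Just above it, Mob1b, a Hippo pathway adaptor, rose by 3.10 and Helz by 0.35, and Adamts9, a secreted protease, had -0.28 without passing the test.

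**Figure D2:**
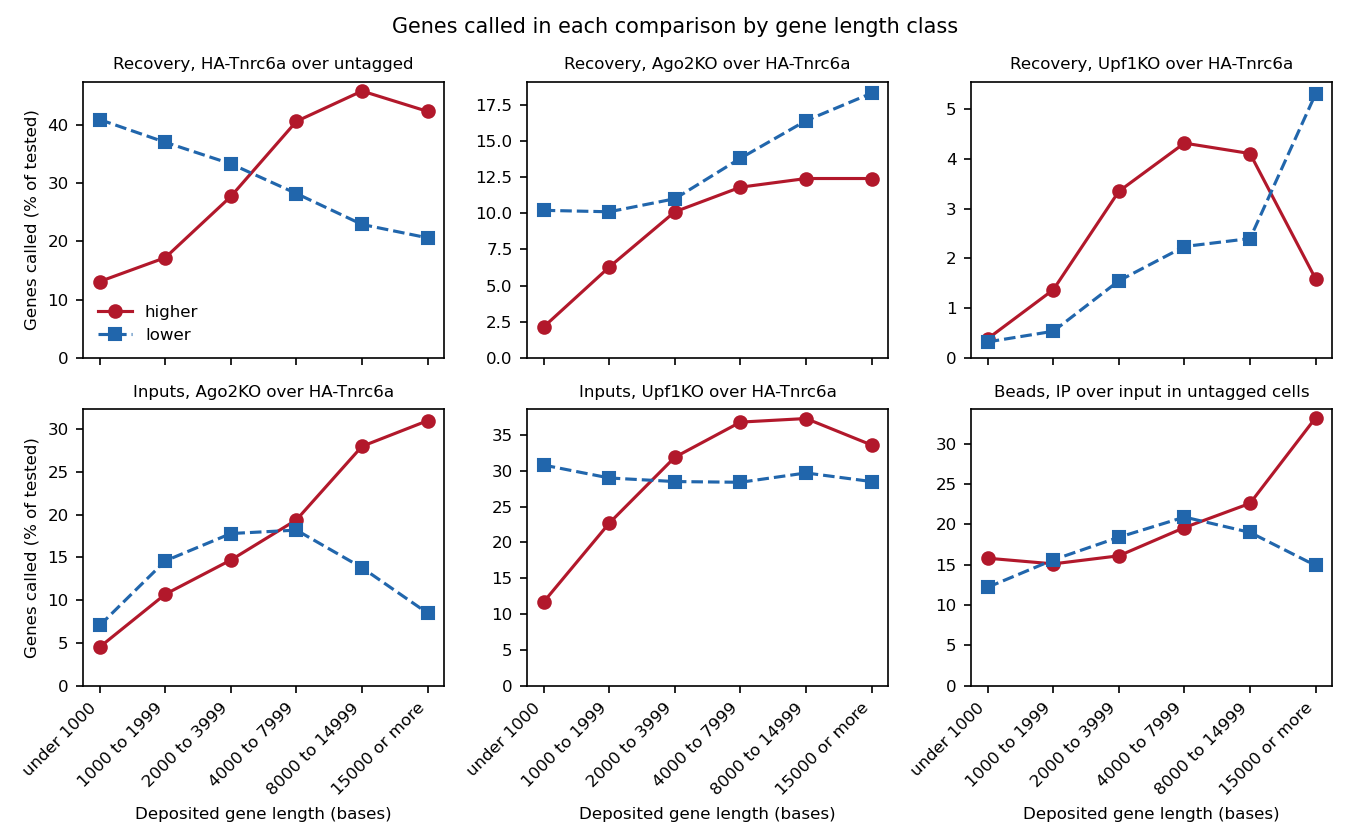
Percent of tested genes called higher or lower in each comparison, by class of deposited length in bases. In the recovery panel the share called higher goes from 13.1% in the shortest class to 45.8% in the class below 15000 bases and is 42.3% in the longest.

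Some of the long-model RNAs were held by beads without any tag. In untagged cells, IP over input was higher for 123 of 370 tested long-model genes (33.2%, with 18% of all genes called higher) and lower for 55 (14.9%, with 17.8% of all genes called lower), and 34 were more than 2-fold higher. The median log2 fold was 0.10, against -0.03 over all genes. On library totals the split turned, with 78 higher and 123 lower and a median of -0.07, because the median of all genes moved by -0.17, and the long-model median was 0.12 above that of all genes in both. By length class the share called higher was 15.8%, 15.1%, 16.1%, 19.6%, 22.6% and 33.2% from the shortest to the longest. At 100 CPM or more it was 41.7%, against 22.8% of other genes, and under 1 CPM 11.5% against 11.6%.

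Cenpf, a kinetochore protein (chr1:189640606-189688107), had the highest bead fold. Its untagged inputs held 155.3 to 203.2 CPM with a median of 189, and its untagged IPs held 13480, 12970 and 17410 CPM in the first set and 3263, 1823 and 3520 CPM in the second. The log2 fold was 5.12 ± 0.19 (adjusted p = 5.42e-08), with 6.42 in the first set and 3.83 in the second, and the sets differed (adjusted p = 0.00345). Tagged IPs were lower, from 1093 over 3422 to 8055 CPM, and in the recovery contrast Cenpf fell by 1.17. Atad2, a bromodomain ATPase (chr15:58094044-58135525), had 1162, 1872 and 2249 CPM in the first set of untagged IPs and 401.1, 260.6 and 403.1 CPM in the second, with a bead log2 fold of 3.60 ± 0.21 (adjusted p = 2.18e-06). The spectrin gene Sptbn1 had 3.28, the centrosomal scaffold Akap9 2.85 and Jmjd1c, a Jumonji-family gene, 2.73. Recovery contrasts for these genes share the untagged libraries with the bead contrast, and in them Atad2 fell by 0.59 and Sptbn1 by 1.12 (without untagged IP 1, -0.88 with adjusted p = 0.0594), while Akap9 and Jmjd1c, at -0.55 and -0.44, did not pass the test.

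By list, 12 of 24 cytoskeletal genes (50%) were higher on untagged beads and 0 lower, with a median of 0.37. Of the 5 listed long noncoding RNAs 4 were higher (80%). Of 38 chromatin genes 16 were higher (42.1%) and 3 lower, and of 9 muscle and calcium release genes 4 were higher (44.4%) and 0 lower. Over all genes 18% were called higher and 17.8% lower, and over long-model genes 33.2% and 14.9%. At 100 CPM or more 41.7% of long-model genes were higher, near the shares of the last 2 lists. None of the 14 tested membrane receptors and adhesion genes passed in either direction by edgeR's test. Among silencing genes 1 of 7 was higher, which was Ago3 at 0.36, and 2 were lower. Those lowest on untagged beads were Zbtb37 at -0.62, Mob1b at -0.50, Arhgap32 at -0.47, Wnk1 at -0.45 and Aak1 at -0.44.

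Loss of Ago2, the main slicing Argonaute, was compared next, as the change of the IP over input ratio from HA-Tnrc6a to HA-Tnrc6a Ago2-/- cells. Of 378 tested long-model genes, 69 fell (18.3%, with 12.3% of all genes called lower) and 47 rose (12.4%, with 9.09% of all genes called higher). The medians were nearly equal, at -0.03 for long-model genes and -0.04 for all genes. The share called lower went from 10.2% in the shortest length class to 16.4% from 8000 to below 15000 bases and 18.3% in the longest. From 30 to below 100 CPM it was 24.3% for long-model genes and 20.2% for other genes, and at 100 CPM or more 20% against 29.5%. Changes were small, with 1 gene more than 2-fold higher and 1 more than 2-fold lower.

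Dnajb14, a membrane co-chaperone, fell most among genes with a mean log2 CPM of at least 1. Below that level Adgrb3 was called at -1.66 (adjusted p = 0.00749). Dnajb14 IPs ran from 38.2 over a median of 48.3 to 51.1 CPM in HA-Tnrc6a cells and from 17.8 over 23 to 27.5 CPM in Ago2-/- cells, without overlap, and its inputs held 7.68 to 10.8 and 5.91 to 11.7 CPM. Recovery of Dnajb14 had a log2 fold of -0.99 ± 0.0997 (adjusted p = 1.86e-09). Asph, an aspartate hydroxylase, fell by 0.97 ± 0.081 (adjusted p = 1.99e-11). For Asph both sides of the ratio moved: inputs were 28.8 to 48 CPM in HA-Tnrc6a and 43.4 to 59.6 CPM in Ago2-/- cells, and the IPs 49.2 to 88 and 36.2 to 64.6 CPM. Arhgef7, a guanine nucleotide exchange factor, fell by 0.89 ± 0.083, with IPs of 466.4 to 730.6 and 343.5 to 480.9 CPM. Several genes highly recovered with the tag had lower recovery here, with values of -0.68 for Phc3, -0.69 for Zbtb37, -0.53 for Mbnl1, -0.35 for Hdac4 and -0.29 for Mast4. The comparisons share the HA-Tnrc6a libraries, so these values are given side by side only.

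Atad2 and the histone acetyltransferase Kat6b also fell, by 0.94 each. Atad2 had -1.68 in the first library set and -0.21 in the second, and the sets did not pass the test of their difference (adjusted p = 0.0953), while for Kat6b they did. Kat6b IPs held 1912, 1567 and 1215 CPM in the first set of HA-Tnrc6a cells and 449.8, 508.2 and 528.5 CPM in Ago2-/- cells, and in the second set 380.6, 403.1 and 438 against 463.7, 459.9 and 449.7 CPM. The log2 fold was -1.76 in the first set and -0.13 in the second (adjusted p of the difference = 1.28e-05). In untagged cells Kat6b was 1.69 higher on beads than in input, with 1364 to 2058 CPM in the first set of IPs and 383 to 411.1 CPM in the second. In this comparison 3 long-model genes (0.794%) differed between the sets, where 0.195% of all genes did. The other two were the chromatin remodeller Atrx, with -1.63 and -0.03, and Phip, with -1.40 and 0.02.

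Among genes with a mean log2 CPM of at least 1, D5Ertd579e had the largest rise of recovery in Ago2-/- cells. Below that level Zfhx4 was called at 1.44 (adjusted p = 0.0458). D5Ertd579e IPs ran from 75.1 over a median of 80.8 to 85.9 CPM in HA-Tnrc6a cells and from 115.7 over 122.1 to 148.2 CPM in Ago2-/- cells, without overlap, and the log2 fold was 0.74 ± 0.078 (adjusted p = 5.11e-09). The checkpoint kinase gene Atr rose by 0.67 ± 0.16, with IPs of 42.5 to 74.6 and 44.1 to 112.4 CPM that overlapped. Lyst, the lysosomal trafficking regulator, rose by 0.64, the helicase Ascc3 by 0.63 and the deubiquitinase Usp34 by 0.55. Of 14 ubiquitin and turnover genes 4 rose (28.6%, with 9.09% of all genes called higher) and 0 fell. Of 17 vesicle and lipid transport genes 6 rose (35.3%) and 3 fell (17.6%, with 12.3% of all genes called lower). Among those 17, Fryl and the autophagy scaffold Wdfy3 fell by 0.68 and 0.35. Chromatin genes leaned the other way, with 4 higher (10.5%) and 12 lower (31.6%) of 38. Ago3 fell by 0.66 ± 0.10 (adjusted p = 8.5e-06), from 30.3 to 43.7 CPM in HA-Tnrc6a IPs to 20.7 to 24.1 CPM, while its inputs held 11.1 to 15.8 and 9.63 to 14.7 CPM. Tnrc6b had -0.18 (adjusted p = 0.0914) and Cnot1 rose by 0.25. Meg3 fell by 0.50, and none of the other 4 noncoding RNAs of the list passed edgeR's test, nor did Ipw, Mir100hg and Morrbid, at -0.22, -0.25 and -0.70.

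**Figure D3:**
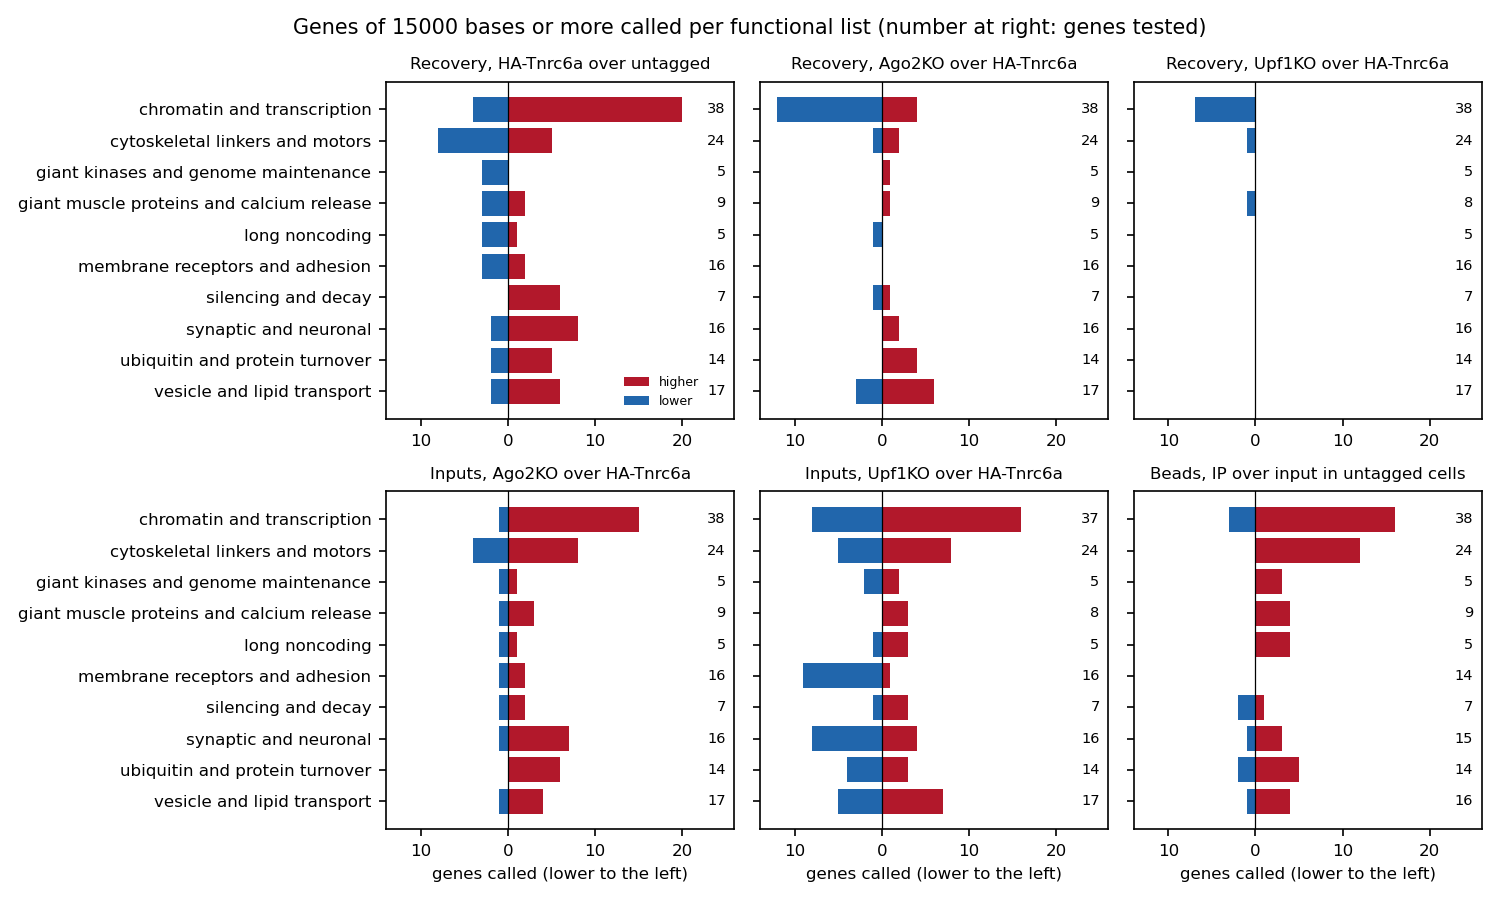
Numbers of long-model genes called higher (to the right) and lower (to the left) in each functional list, for the 6 comparisons, with the number tested beside each bar. In recovery with the tag, chromatin genes gave 20 higher and 4 lower, and cytoskeletal genes 5 higher and 8 lower.

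In the libraries labelled Upf1-/-, recovery changed for few long-model genes, and most of those fell. Of 377 tested, 20 fell (5.31%, with 1.57% of all genes called lower) and 6 rose (1.59%, with 2.92% of all genes called higher), and the medians were -0.01 and 0.02. The share called lower by length class was 0.321%, 0.535%, 1.55%, 2.24%, 2.4% and 5.31%. From 30 to below 100 CPM it was 7.43% for long-model genes and 2.86% for other genes, and under 1 CPM 0% and 0.181%. On library totals 38 fell and 3 rose, with the median of all genes moved by -0.09, so that 7.32% in place of 23.1% of calls were rises. On the second library set alone 3 fell and 3 rose, and without HA-Tnrc6a IP 4 or IP 4 labelled Upf1-/- the genes that fell numbered 35 and 31.

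The genes that fell most were Atad2, Atrx, Atad2b, Tet1 and Syne2, and all 5 were also higher on untagged beads. Atad2 IPs held 1589, 1499 and 1117 CPM in the first set of HA-Tnrc6a cells and 165.7, 255.4 and 282.7 CPM in the libraries labelled Upf1-/-, but in the second set 178.7, 240.1 and 267 against 202.2, 222.4 and 206.9 CPM. The log2 fold was -1.25 ± 0.22 on average (adjusted p = 0.0022), with -2.46 in the first set and -0.04 in the second. Atrx had -2.05 and -0.44, with IPs of 760.2, 680.2 and 554.5 against 181.5, 191.7 and 185.3 CPM in the first set. On the second set alone none of the 5 passed edgeR's test, with values from -0.41 to -0.01. Over both sets Atad2b fell by 1.04, the DNA demethylase gene Tet1 by 1.01 and the nuclear envelope linker Syne2 by 1.01. The sets differed for 5 long-model genes (1.33%), which were Kat6b, Atad2, Atrx, Phip and Syne2, where 0.115% of all genes differed. Each of these 5 had the larger fall in the first set.

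The fall in these libraries and the hold on untagged beads come from separate libraries. Both were measured in the same library sets, so their overlap is not independent of the sets. Fitted on both sets 20 long-model genes fell, while separate fits gave 17 on the first set alone and 3 on the second alone. Of the 20 genes with lower recovery, 16 (80%) were higher on untagged beads, which is 13% of the 123 long-model genes higher there. Among all 369 long-model genes in both tests 33.3% were higher on beads. Over all genes, 94 of 312 with lower recovery were higher on beads (30.1%), where 17.9% of the genes in both tests were. Of the 69 long-model genes with lower recovery in Ago2-/- cells, 21 (30.4%, and 17.1% of the 123) were higher on untagged beads and 20 (29%, and 36.4% of the 55) were lower. The part of bead-held RNA in the changes of recovery was not tested, nor was the part of the library sets in these overlaps.

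Zfp451, a zinc finger gene, showed neither pattern. Its IPs ran from 356.5 over a median of 405.3 to 463.2 CPM in HA-Tnrc6a cells and from 230.1 over 252.8 to 285.3 CPM in the libraries labelled Upf1-/-, without overlap. Its log2 fold was -0.75 ± 0.073 (adjusted p = 4.96e-08), with -0.75 and -0.74 in the sets, and on untagged beads it had 0.03 (adjusted p = 0.688). It was chosen here after its values were seen. Of the genes that rose, Mkln1, a subunit of a ubiquitin ligase complex, had IPs of 53.6 to 83.1 CPM in HA-Tnrc6a cells and 76.8 to 125.1 CPM in the libraries labelled Upf1-/-. Within each set the groups did not overlap, at 53.6 to 63 against 76.8 to 87.5 and at 76.6 to 83.1 against 121.2 to 125.1 CPM, and the log2 fold was 0.44 ± 0.064. Ntrk3, a receptor kinase gene with a mean log2 CPM of -0.20, rose by 1.52 (adjusted p = 0.00989). N4bp2l2 rose by 0.44, Frmd4a by 0.28, Tmcc1 by 0.27 and the kinase gene Ikbkb by 0.24. Of these, Ikbkb lost its call without any 1 of 22 libraries, Frmd4a without any 1 of 18 and Tmcc1 without any 1 of 6, each of 24 left out in turn. Ikbkb and Frmd4a also lost it in 6 of 7 other settings. No gene of the silencing and decay list passed the test by edgeR in this comparison. All 7 chromatin genes that passed fell, of 38 tested (18.4%), and the median of the 38 was -0.07. Over all genes 1.57% were called lower and 2.92% higher, and over long-model genes 5.31% and 1.59%. On the second library set alone 3 long-model genes of any list were called lower.

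**Figure D4:**
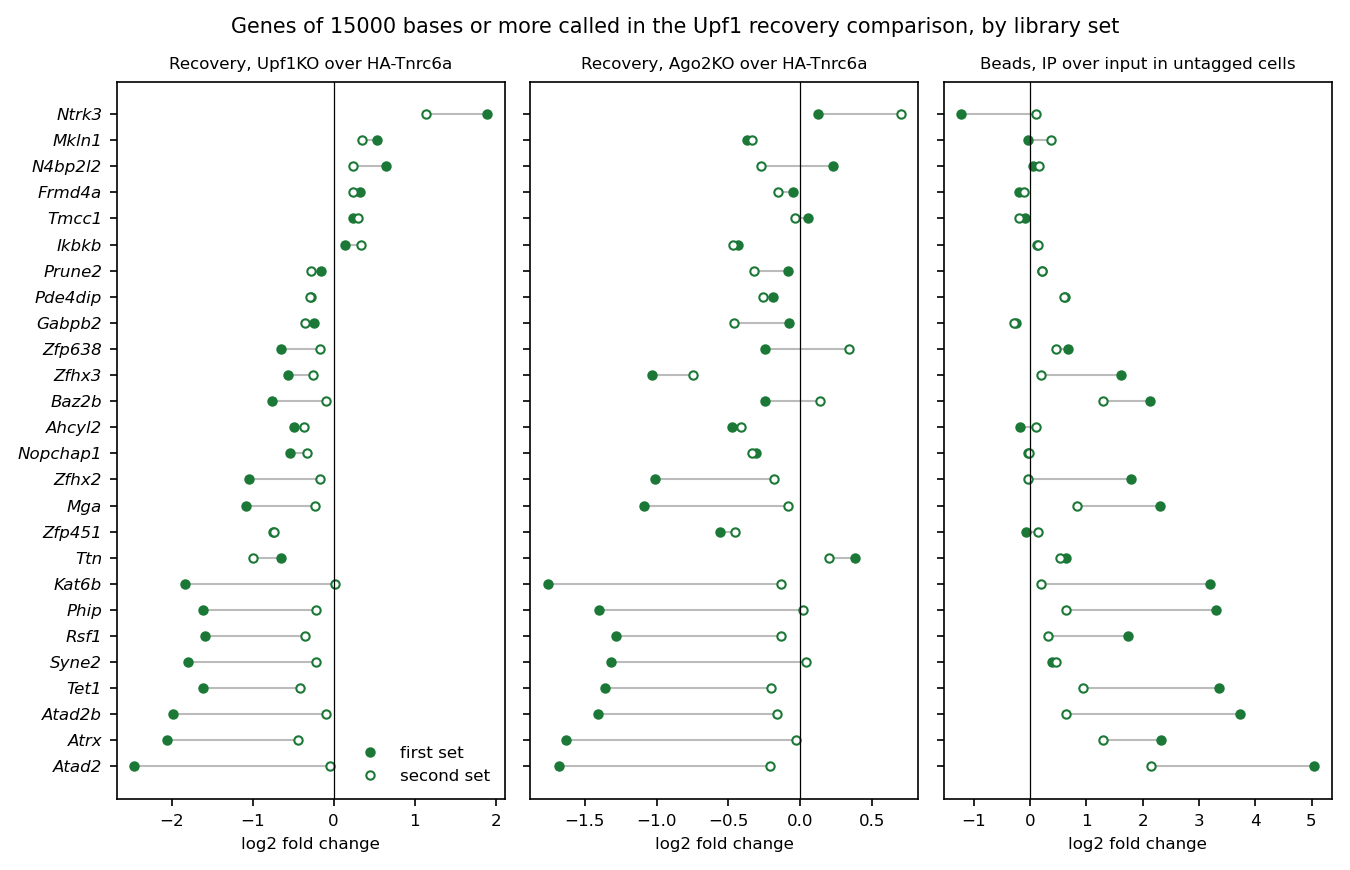
Log2 fold changes of the 26 long-model genes called in recovery in the libraries labelled Upf1-/-, with filled points for the first and open points for the second library set. The panels give that recovery, recovery in Ago2-/- cells and IP over input in untagged cells; for Atad2 the first panel has -2.46 and -0.04, and for Zfp451 -0.75 and -0.74.

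The inputs give RNA levels without any pull-down. In Ago2-/- inputs, 117 of 377 tested long-model genes rose against HA-Tnrc6a inputs (31%, with 15.7% of all genes called higher) and 32 fell (8.49%, with 15.2% of all genes called lower). The changes were small, with a median log2 fold of 0.05 against -0.01 over all genes and 3 genes over 2-fold higher. The share called higher was 4.52%, 10.7%, 14.7%, 19.4%, 28% and 31% from the shortest to the longest class. At 100 CPM or more 45% of long-model genes rose and 8.33% fell, against 26.3% and 20.4% of other genes at that level, and under 1 CPM both shares were 3.03%, against 3.8% and 6.67%.

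Slit2, a secreted guidance cue and the host of miR-218 printed above (chr5:47981291-48307735), rose most. Its inputs held 5.63 to 7.35 CPM in the first set of Ago2-/- cells against 1.73 to 2.40 CPM, and 2.43 to 3.12 against 1.31 to 1.49 CPM in the second set, without overlap in either. Its rise on the log2 scale was 1.32 ± 0.14 (adjusted p = 7.87e-11). Ttn, which encodes the giant muscle protein titin, ran from 7.49 over a median of 11.9 to 14.6 CPM against 3.55 over 5.58 to 7.42 CPM, and rose by 1.06 ± 0.095 (adjusted p = 3.82e-12). Utrn held 101.6 to 124.3 CPM against 65.2 to 79.4 CPM and rose by 0.62 ± 0.032 (adjusted p = 3.47e-20). Nav2, a neuron navigator gene, rose by 0.59 and Asxl3, a Polycomb-linked gene, by 0.58. Of 38 chromatin genes 15 rose (39.5%) and 1 fell, and of 14 ubiquitin and turnover genes 6 rose (42.9%) and 0 fell. Of 16 synaptic and neuronal genes 7 rose (43.8%) and 1 fell. Over all genes 15.7% were called higher and 15.2% lower, and over long-model genes 31% and 8.49%. Neural markers were higher in Ago2-/- than in HA-Tnrc6a inputs, as given above, and their part in the rise of neuronal genes was not tested. In the silencing list Tnrc6b rose by 0.34 ± 0.042 and Helz by 0.09, while Cnot1 fell by 0.07.

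Of genes with a mean log2 CPM of at least 1, Hydin, a gene of motile cilia, fell most in Ago2-/- inputs, and the 1 long-model gene over 2-fold lower, Kdm5d, had a lower level. Hydin ran from 2.31 over a median of 4.83 to 5.97 CPM against 6.47 over 7.34 to 7.96 CPM and fell by 0.71 ± 0.11 (adjusted p = 1.6e-06). Nrg1, a growth factor gene, fell by 0.69, the dynein gene Dnah10 by 0.62, the channel gene Kcnh7 by 0.51 and the endocytic receptor gene Lrp2 by 0.40. The fall of Nrg1 lay in the first set, at -1.37, with -0.02 in the second. On the second set alone the calls of Nrg1, Dnah10, Lrp2 and Asxl3 were lost, the last also without Ago2-/- input 2 (0.42, adjusted p = 0.069).

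Inputs labelled Upf1-/- changed more broadly. Of 375 tested long-model genes 126 rose (33.6%, with 29.5% of all genes called higher) and 107 fell (28.5%, with 29% of all genes called lower). Taken over all levels, the shares lay near those of all genes, and the medians were 0.02 and -0.02. By level the shares varied. Under 1 CPM 6.45% of long-model genes rose and 25.8% fell, against 9.56% and 17.9% of other genes. From 1 to below 10 CPM 14.8% of long-model genes rose and 41% fell, against 24.4% and 25.6% of other genes. From 10 to below 30 CPM the shares were 40% and 22.7%, against 40.9% and 28.2%. From 30 to below 100 CPM they were 45.9% and 22.3%, against 43.2% and 32%. At 100 CPM or more 28.3% rose and 40% fell, against 27.7% and 54.2% of other genes. The fall exceeded 2-fold for 10 long-model genes, all under 10 CPM, and the rise for 1. Pcnx, a large membrane protein, rose most among genes with a mean log2 CPM of at least 1, below which Itga1 was called at 1.38 (adjusted p = 8.47e-05). Pcnx inputs ran from 51.1 over a median of 58.3 to 63.4 CPM against 25.4 over 32.5 to 35.9 CPM, without overlap, with a log2 fold of 0.88 ± 0.040 (adjusted p = 4.33e-24). Smg1, the kinase of nonsense-mediated decay (chr7:118131308-118244437), held 130.7 to 174.8 CPM against 78.3 to 101.3 CPM and rose by 0.80 ± 0.061 (adjusted p = 1.12e-06). Wscd2 rose by 0.88, Neat1 by 0.78 and Adamts9 by 0.75. Neat1 had 156.3 to 179.2 against 89.4 to 98.2 CPM in the first set and 75.9 to 80.5 against 45.1 to 47.8 CPM in the second.

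Mbnl1 fell most above that level, with 2.05 to 6.46 CPM in inputs labelled Upf1-/- and 7.29 to 12.4 CPM in HA-Tnrc6a inputs, and medians of 4.13 and 10.1 CPM. Mbnl1 had a log2 fold of -1.36 ± 0.093 (adjusted p = 1.92e-17). AC160336.1 fell by 1.09, the sperm protein gene Zan by 1.03 (-0.24 and not called on the first set alone), the exchange factor gene Dock10 by 0.95 and Macir, one of the genes with a model longer than its span, by 0.94. Xist fell by 0.79. Of 16 membrane receptors and adhesion genes 9 fell (56.2%, with 29% of all genes called lower) and 1 rose (6.25%, with 29.5% called higher), with a median of -0.27. Of 16 synaptic and neuronal genes 8 fell (50%) and 4 rose (25%). Neural marker sums were lower in these inputs, at 47.5 to 64.4 CPM against 77 to 85.6 CPM, and their part in these counts was not tested. Chromatin genes had 16 higher (43.2%) and 8 lower (21.6%) of 37. Silencing genes had 3 of 7 higher (42.9%), namely Smg1, Xrn1 at 0.22 and Dicer1 at 0.11, and 1 lower (14.3%), Cnot1 at -0.12.

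**Figure D5:**
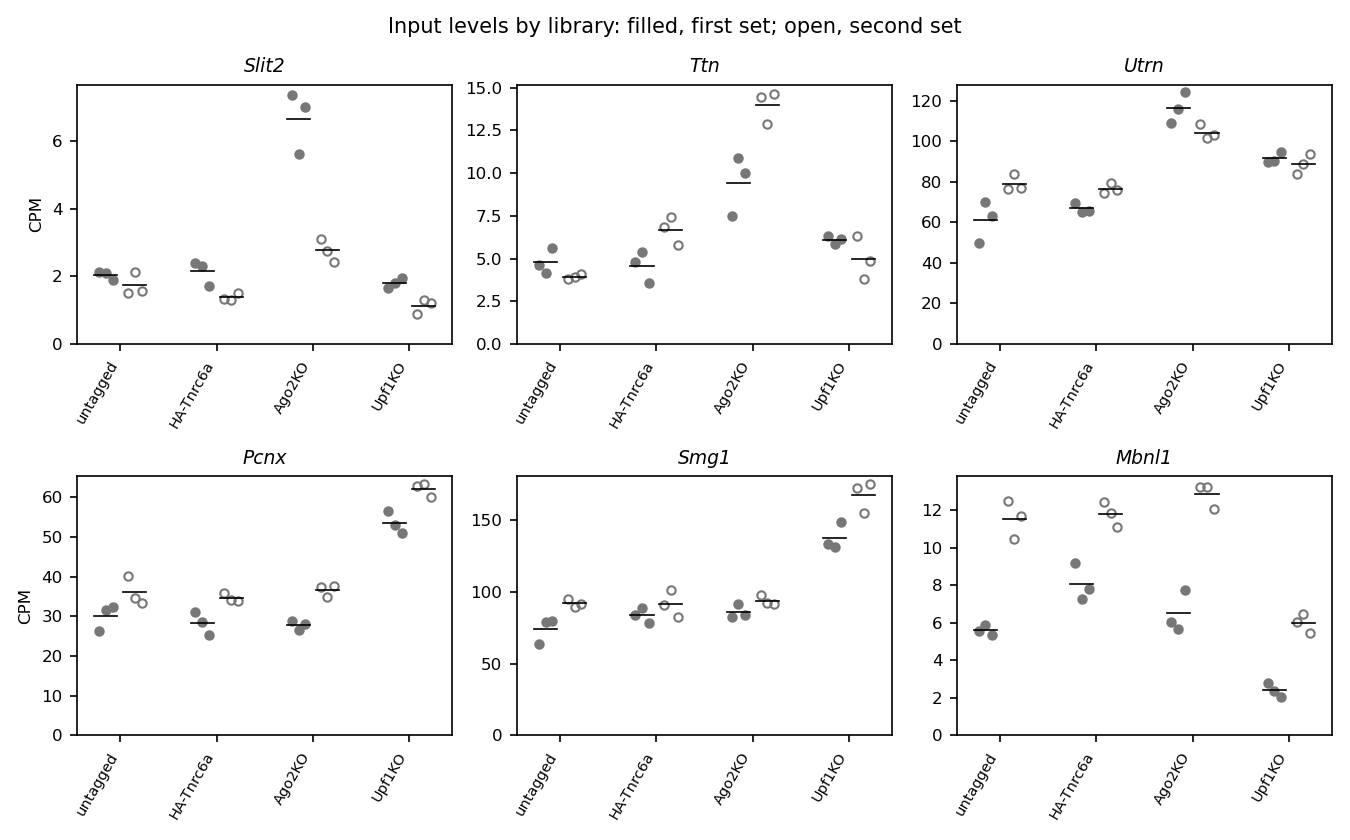
Input levels of 6 long-model genes in CPM on a linear axis from 0, by genotype, with filled points for the first library set, open points for the second and lines at the means of 3 libraries. Slit2, Ttn and Utrn are highest in Ago2-/- inputs, Pcnx and Smg1 in inputs labelled Upf1-/-, where Mbnl1 is lowest.

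In recovery with the tag, the library sets differed for 4 long-model genes (1.06%), where 0.365% of all genes differed. Among them, Sbno1 had log2 folds of 3.03 and 2.12 in the first and second set, Naa15 0.49 and 1.07, and Syne2 0.96 and -0.45. Sbno1 was recovered in both sets with different size, and the fitted value of Syne2 changed sign between them.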

How the data were processed

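The authors deposited a table of whole-number read counts per gene with the gene length, per the file headers, and 48 further columns of RPKM per library that were not used. Reads were processed with bcl2fastq 2.20 and STAR 2.7.3a on GRCm38/mm10, per the submitters' processing notes. The counting tool, its strand setting and the annotation are not given in the sources used here. From the counts, each comparison was fitted on all genes with edgeR 4.0.16 in R 4.3.3 (TMM scaling, filterByExpr with a minimum count of 10, robust quasi-likelihood F-test, two-sided, Benjamini-Hochberg adjustment over all genes tested, called under 0.05). The model had 1 coefficient per group and library set, and contrasts were averaged over the 2 sets. Log2 folds are given ± standard error, and 2-fold means 2-fold on the fitted value. The fit was tested on simulated counts. The alternatives were RLE size factors, library totals, no count filter, DESeq2 1.42.0, a replicate block, each library set alone, each library left out, and length thresholds of 10000 and 20000 bases.

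Members and functional lists were chosen with earlier results of these data known. Named are the 10 long-model genes with the highest input per kilobase, up to 5 per direction and comparison with the largest called change of the same sign in both sets and a mean log2 CPM of at least 1, every long-model gene of the silencing and noncoding lists, up to 3 of each other list by input per kilobase, the genes at the threshold, and Ago2, Upf1 and Tnrc6a. Any other gene was picked after its values were seen. These are genes that differ between sets (Sbno1, Naa15, Phip), Zfp451, the hosts of printed microRNAs, noncoding RNAs outside the list, called genes below the level limit (Zfhx4, Adgrb3, Itga1, Ntrk3, Kdm5d), and Nopchap1 for its length. Some genes that the rule names are not reported here.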

Additional observations from a re-analysis of the deposited data

Results flagged for a closer look

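In 208 groups of 6 libraries examined, for the levels of 25 genes and the share of counts taken by the long-model genes, 3 had 1 library far from the others. The rule marks about 1 in 20 groups by chance when all 6 values share 1 normal distribution. Each group here pools the 2 library sets, whose levels can differ, so the 3 are not read against that rate. Mkln1 had 42.68 CPM in untagged input 2, N4bp2l2 had 55.23 CPM in untagged IP 1 and Zbtb37 had 14.19 CPM in untagged input 1. The recovery effect differed between the library sets by edgeR's test for 4 long-model genes over untagged, 3 in Ago2-/- cells and 5 in the libraries labelled Upf1-/-, and values of these genes stand above. For Kat6b, Atrx and Phip, which differ in both of the last comparisons, the HA-Tnrc6a libraries are shared.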

How the results depend on the processing

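Upf1-/- here means the libraries so labelled. Counts of long-model genes called were within 1.5 times the main count under RLE size factors and without a count filter. On the first library set alone they were 38 lower for recovery over untagged, 13 higher and 43 lower for Ago2-/- recovery, 1 higher for Upf1-/- recovery, 69 higher for Ago2-/- inputs, 82 higher for Upf1-/- inputs, and 65 higher and 18 lower on untagged beads. On the second set alone Upf1-/- recovery gave 3 higher and 3 lower, where both sets gave 6 and 20. Library totals gave 3 and 38 for Upf1-/- recovery and 78 and 123 for beads, and DESeq2 3 higher for Upf1-/- recovery. The replicate block gave 10 higher for Upf1-/- recovery and 3 set differences there in place of 5. Deviations of same-numbered libraries had a mean correlation of 0.0108 over 168 pairs, with values up to 0.193. For input and IP of 1 genotype the mean was 0.0203 over 24 pairs, with values up to 0.167. A mean over such pairs cannot decide whether an input and an IP of 1 number share a lysate. With the replicate block, beads gave 134 higher and 75 lower, where the main fit gave 123 and 55. With 1 library left out, counts higher and lower ran 154 to 167 and 68 to 89 for recovery over untagged, 35 to 59 and 65 to 76 for Ago2-/- recovery, 3 to 8 and 17 to 35 for Upf1-/- recovery, 105 to 129 and 25 to 34 for Ago2-/- inputs, 115 to 130 and 102 to 110 for Upf1-/- inputs, and 113 to 134 and 40 to 64 for beads. Without HA-Tnrc6a IP 4 or IP 4 labelled Upf1-/-, Upf1-/- recovery gave 35 and 31 lower, and it gave 3 higher without HA-Tnrc6a input 3, 5 or 6, HA-Tnrc6a IP 2 or 5, or IP 4 labelled Upf1-/-. The genes named for the largest called changes were also followed under settings other than leaving out a library. Of their values, 390 kept their call and 30 lost it. These genes were picked for a call with the same sign in both sets. Reversals on a set alone were thus largely barred by that choice and are not read as a result. The medians under library totals were -0.0033 for recovery over untagged, -0.1021 for Upf1-/- recovery and -0.07244 for beads. The cause of these changes was not tested, beyond the smaller number of libraries in each set alone.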

Other observations

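Kdm5d, a Y-linked histone demethylase gene with a long model, was chosen after its values were seen. Untagged inputs held 0.0491 to 0.158 CPM. HA-Tnrc6a inputs held 1.36 to 1.87 CPM in the first set and 0.445 to 0.504 CPM in the second. Ago2-/- inputs held 0.0468 to 0.165 CPM in the first set and 0.257 to 0.492 CPM in the second, and inputs labelled Upf1-/- 0.426 to 1.33 CPM over both. The untagged parental line was thus lower in Kdm5d than HA-Tnrc6a in both sets, at levels of few reads per library.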
